A study of Mus musculus with 24 samples.

Results

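The genes described here encode the structural matrix of embryonic mesenchyme outside cartilage: fibrillar, network, transmembrane and basement membrane collagens, elastic fibre proteins, crosslinking enzymes, and a few matricellular and basement membrane proteins. They were taken from a list of 43 gene symbols, and a gene was represented by its probe set with the highest mean over all 24 arrays. Of the 43 genes, 41 had a named probe set, out of 18193 named genes in the series. All 41 passed the filter on low values that left 13837 genes for testing. Fbn1, a fibrillin, and Loxl2, a lysyl oxidase, had no named probe set and were not analysed here. The 41 genes held 92 probe sets between them.

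RNA was measured in mandible and maxilla, each divided into a distal and a proximal end, from C57B6 mouse embryos at embryonic day 12.5. Knockout embryos came from crosses of Wnt1cre;Alk5fl/+ with Alk5fl/fl mice, and controls were littermates labelled only as control, so their Cre and floxed alleles are not given. Alk5 is the type I TGF-beta receptor, gene symbol Tgfbr1, and Wnt1-Cre removes it in the neural crest lineage. That lineage gives rise to most facial mesenchyme but not to the epithelium, endothelium, blood or skeletal muscle fibres of the face. Mutants were recognised by cleft palate and a skull defect. Each of the 4 parts had 2 control arrays and 4 knockout arrays, 8 and 16 in all. Nothing in the labels says whether samples came from separate embryos or pools, so p-values measure only the spread between these samples. In bulk tissue, fewer cells of a type and less RNA per cell cannot be told apart.

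The knockout arrays form 2 array sets, numbers 1 and 2 and numbers 3 and 4, which differ in hybridisation controls and in how far the 3' probe sets of Gapdh and beta-actin exceed the 5' ones, a measure of RNA quality. This 3' excess ranged from 0.13 to 0.22 (log2) on the control arrays, from 0.71 to 1.50 in knockouts 1 and 2, and from 0.00093 to 0.16 in knockouts 3 and 4. Knockouts 1 and 2 also had higher erythroid markers (5 of 5 tested passed, list mean between 12.44 and 13.21 against 11.18 to 11.45 in control) and higher developmental timing genes such as Lin28b and Trim71 (list mean 10.63 to 11.33 against 8.98 to 9.26). The erythroid mean of knockouts 3 and 4 lay between 10.66 and 11.17 and their timing mean between 9.16 and 9.64. All controls were male, and each knockout set held 4 female arrays. The part of these differences in the results below was not tested, and genotype and array set cannot be told apart. Facial mesenchyme markers such as Prrx1 and Twist1 were all above the filter, with list means between 9.88 and 11.08 over the arrays, and 8 of 8 mandibular markers such as Hand2 passed as higher in mandible than maxilla in the knockouts. The brightest of the 3 Tgfbr1 probe sets averaged 12.31 in control, 12.34 in knockouts 1 and 2 and 12.44 in knockouts 3 and 4. The others averaged 7.57, 5.95 and 6.75, and 7.03, 5.10 and 7.63. Whether a probe lies in the deleted part is not known here, so these levels check no label.

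Fibrillar collagens assemble outside the cell into banded fibrils, whose width is set in part by the minor type V chains and by fibril-associated collagens on the surface. Lysyl oxidases then crosslink collagen and elastin. Elastic fibres form when tropoelastin is deposited on fibrillin microfibrils with the help of fibulins and emilins, while basement membranes are sheets of laminin and type IV collagen joined by nidogen and perlecan. Fibrillins and related proteins store latent TGF-beta, and many interstitial matrix genes are classical TGF-beta targets.

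Whether loss of Alk5 in the crest changed these genes was asked first over all parts, with each replicate number taken as the mean of its 4 parts (4 knockout against 2 control means). No member passed at an adjusted p of 0.05 (limma, 0 of 41, against 0% of the 13837 genes). At an unadjusted p under 0.05 there were 13 members of 41, against 6.97% of all genes. Of the members 36 lay below control, against 58.6% of all genes, and the median log2 difference was -0.51 against -0.05. A difference of 1 on this scale is a factor of 2. The smallest p-values were those of Mfap4, a microfibril-associated protein (-0.54 ± 0.08, SE, limma adjusted p = 0.508), Sparc, a collagen-binding glycoprotein (-0.53 ± 0.10, adjusted p = 0.589), Col15a1, a basement membrane collagen (-1.36 ± 0.29, adjusted p = 0.598), the elastic fibre protein Emilin1 (-0.62 ± 0.16, adjusted p = 0.642) and the laminin chain Lamc1 (-0.63 ± 0.18, adjusted p = 0.697). With the 3' excess as a covariate 11 members passed, all lower, against 4.91% of all genes. That excess was higher on every array of knockouts 1 and 2 than on any other array. The covariate thus largely stands for the array set, and this fit cannot separate RNA quality from it. With all 24 arrays in 1 fit, parts not averaged first, 33 passed as lower and 2 as higher, against 46.8% of all genes. That fit takes the parts of a number as separate samples. It also gives each array set and part its own mean, so differences between the 2 knockout sets do not enter its spread. In the fit of number means they do enter it.

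For 3 members every knockout array lay below every control array, against 0.759% of all genes. Sparc lay at 12.88, 13.03 and 13.21 (lowest, median and highest of 8) in control, 12.25, 12.43 and 12.66 in knockouts 1 and 2 and 12.40, 12.50 and 12.77 in knockouts 3 and 4. Lamc1, the gamma chain of most laminins, lay at 10.56, 10.69 and 10.80, at 9.65, 9.88 and 10.03, and at 10.15, 10.26 and 10.48. The third was Col15a1, described below. For Sparc both knockout sets overlapped and the gap to control was similar, whereas for Lamc1 knockouts 3 and 4 fell between the others. The difference between the knockout sets was -0.11 ± 0.07 for Sparc (adjusted p = 0.207) and -0.44 ± 0.07 for Lamc1 (adjusted p = 0.00341). The Sparc pattern held for 1 of its bright probe sets only. The second, nearly as bright (means over all arrays of 12.68 and 12.48), lay at 12.89 to 13.23 in control, at 11.42 to 12.01 in knockouts 1 and 2 and at 12.50 to 12.92 in knockouts 3 and 4. On it the knockout sets did not overlap (-1.05 ± 0.08, adjusted p = 0.000353 over the probe sets), and knockouts 3 and 4 overlapped control.

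The 2 knockout sets were then compared with the same controls. In knockouts 1 and 2, 36 of 41 members passed, against 52.6% of all genes, and 35 lay below 0 (55.9%). Of the 36, 31 were lower (31.7% of all genes) and 5 higher (20.9%). In knockouts 3 and 4, 3 of 41 passed, all lower, against 1.56% of all genes called and 1.29% called lower. There 20 members had an unadjusted p under 0.05 (26.8% of all genes) and 34 lay below 0 (56.4%). The member median was -0.71 in knockouts 1 and 2 (all genes -0.06) and -0.26 in knockouts 3 and 4 (all genes -0.03). Both knockout arrays of a part lay below both controls in all 4 parts for 26 members in knockouts 1 and 2 (23.5% of all genes) and for 9 in knockouts 3 and 4 (7.51%). Those 9 were Col4a2, Col15a1, Col27a1, Sparc, Eln, Emilin1, Mfap4, Hspg2 and Lamc1. No member lay above control in all 4 parts in knockouts 3 and 4 (5.02% of all genes), and 3 did so in knockouts 1 and 2, namely Col4a1, Col18a1 and Hspg2 (15.9% of all genes). Of the 30 members with several probe sets tested, 6 had probe sets of both signs in each of these comparisons.

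The calls in knockouts 3 and 4 depended on how the 2 control numbers were averaged. They fell to 0 of 41 members, and 0 genes of all, when the numbers of the control distal mandible were exchanged, and to 0 without knockout 3 or without knockout 4. They came to 1 without control 1 and to 14 without control 2. A left-out number leaves 1 mean in its arm, which is then assumed to vary like the other arm. With all 24 arrays in 1 fit they were 16, all lower, of 2478 genes called (17.9% of all genes). Over 12 alternatives the size of Col15a1 lay between -1.69 and -1.81, of Mfap4 between -0.53 and -0.57, and of Hspg2 between -0.45 and -0.58. Several alternatives cannot change a size in this balanced design, so this range is no support for the calls. They are the filter, the trended prior, the joint fits and the crossed control numbers. Col15a1 and Mfap4 have 1 probe set each, so the mean over probe sets changes nothing for them.

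**Figure D1:**
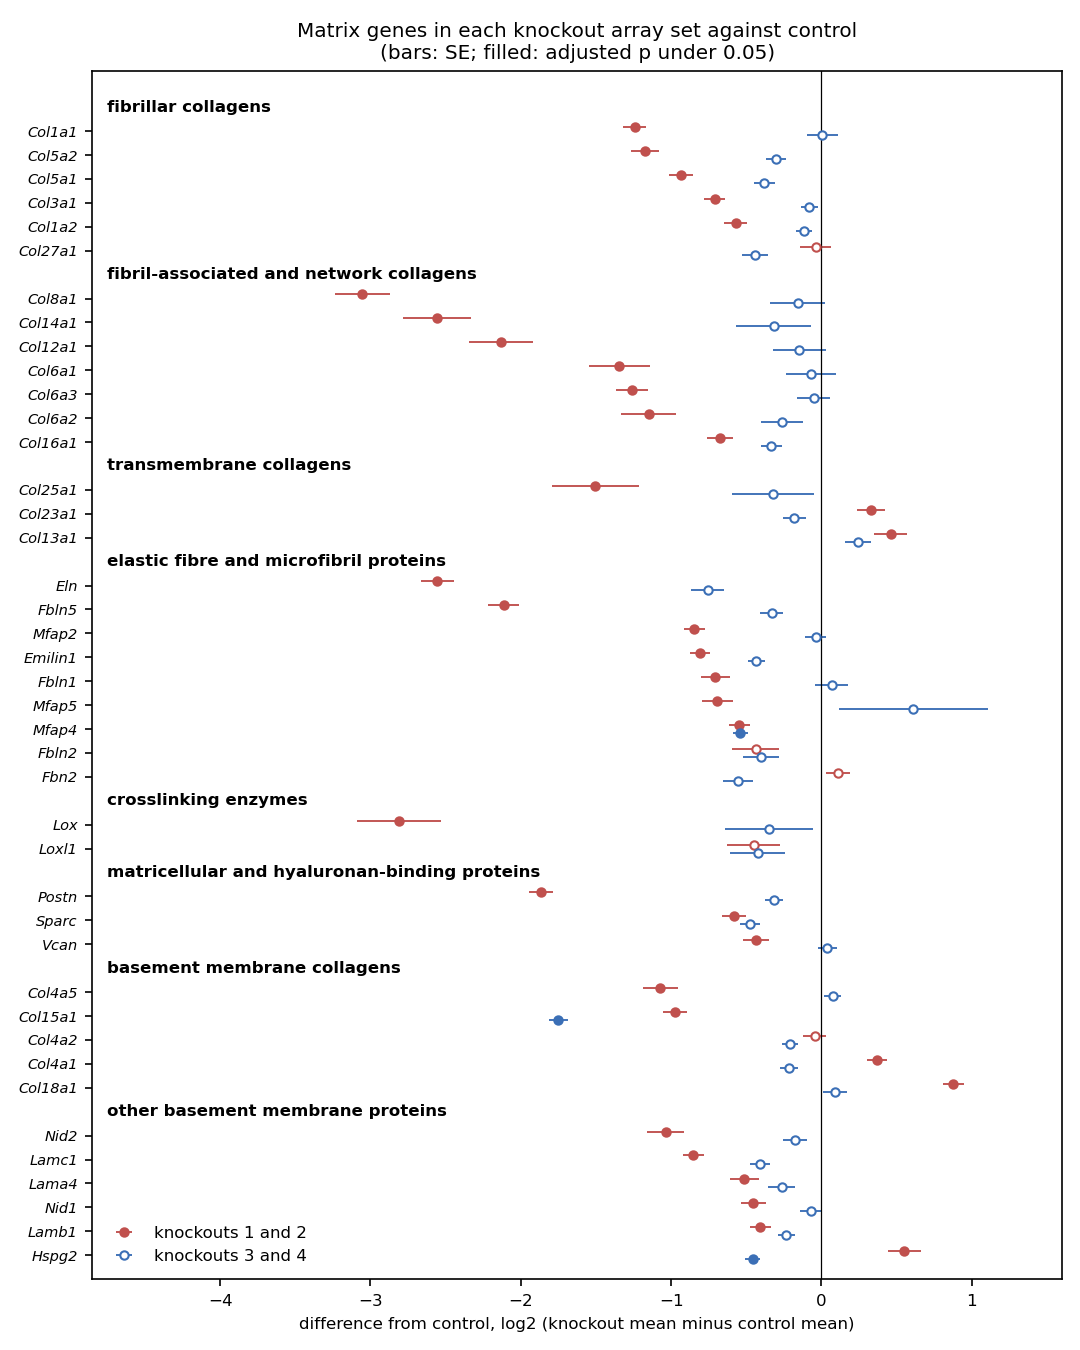
Difference from control (log2, horizontal axis) of each of the 41 genes, grouped by role, in knockouts 1 and 2 (red) and knockouts 3 and 4 (blue); bars are standard errors and filled points passed at an adjusted p of 0.05. In knockouts 1 and 2 Col8a1 lies at -3.05 and Col18a1 at 0.88, while in knockouts 3 and 4 only Col15a1, Mfap4 and Hspg2 are filled, all to the left of 0.

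Of the 6 fibrillar collagens, 5 fell in knockouts 1 and 2, with a group median of -0.82, and none passed in knockouts 3 and 4 (median -0.21). Col1a1, a chain of type I collagen, lay at 10.98, 11.57 and 11.88 in control and at 9.77, 10.30 and 10.74 in knockouts 1 and 2, with no overlap (-1.24 ± 0.08, limma adjusted p = 0.00155). It lay at 11.31, 11.44 and 11.94 in knockouts 3 and 4, overlapping control (0.01 ± 0.11, adjusted p = 0.972). Col1a2, the other type I chain, fell by 0.57 in knockouts 1 and 2, and Col3a1, the chain of type III collagen, by 0.71. They differed by -0.12 and -0.08 in knockouts 3 and 4. A dim Col1a2 probe set (mean 7.86) rose by 1.42 in knockouts 1 and 2, and with the mean over its probe sets Col1a2 differed by 0.0072. Col5a1 and Col5a2, the fibril-nucleating type V chains, fell by 0.93 and 1.17 in knockouts 1 and 2. They lay at -0.38 ± 0.07 (adjusted p = 0.0810) and -0.30 ± 0.07 (adjusted p = 0.0979) in knockouts 3 and 4. Col27a1, a fibrillar collagen best known from cartilage, was the sixth. It lay at 10.09, 10.20 and 10.85 in control, at 9.80, 10.34 and 10.56 in knockouts 1 and 2 (-0.04 ± 0.10, adjusted p = 0.779), and at 9.70, 9.82 and 9.99 in knockouts 3 and 4 (-0.44 ± 0.08, adjusted p = 0.0845). Every array of knockouts 3 and 4 was below every control for Col27a1. Its second probe set differed by -0.67 ± 0.09 in knockouts 1 and 2 (adjusted p = 0.00267 over the probe sets) and by -0.29 in knockouts 3 and 4, so which set was lower rests on the probe set. Such a gap was found for 5 members (4.70% of all genes), the others being Col15a1, Hspg2, Sparc and Lamc1. In knockouts 1 and 2 it was found for 23 members below control (17.9%) and 3 above (12.5%).

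The Col1a1 result depended on the probe set. Its 2 probe sets had almost the same mean over the 24 arrays, 11.10 for the one used (1455494_at) and 11.08 for the other (1423669_at). The second lay at 11.53, 12.16 and 12.54 in control, at 10.05, 10.53 and 10.80 in knockouts 1 and 2, and at 10.45, 10.66 and 10.95 in knockouts 3 and 4, so both knockout sets were below all controls. In a fit of all 30399 named probe sets past the filter, it differed by -1.45 ± 0.08 in knockouts 3 and 4 (limma adjusted p = 0.0241), where the first differed by 0.01. Within an array the first minus the second was -0.68 to -0.42 in control, -0.35 to -0.02 in knockouts 1 and 2 and 0.68 to 1.44 in knockouts 3 and 4, and these 3 ranges did not overlap. Which part of the transcript each probe set reads is not given in the sources used here.

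**Figure D2:**
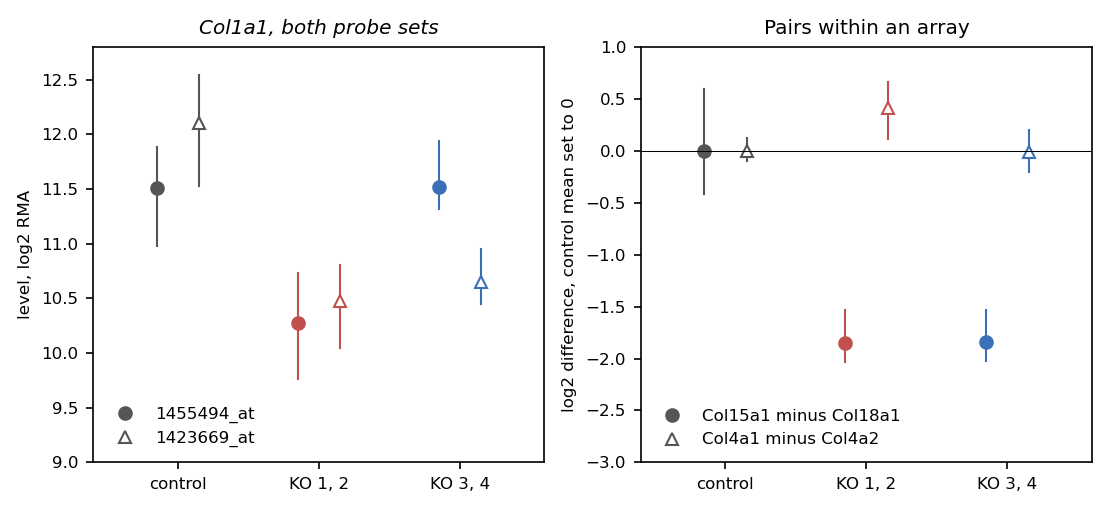
Left, level (log2) of both Col1a1 probe sets by array set, with the mean as a point and the range of 8 arrays as a line; right, the log2 difference within an array between Col15a1 and Col18a1 and between Col4a1 and Col4a2, with the control mean set to 0. The open Col1a1 points are near 10.5 in both knockout sets while the filled point of knockouts 3 and 4 is at the control level of 11.51, and Col15a1 minus Col18a1 is shifted by -1.85 and -1.84.

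All 7 fibril-associated and network collagens fell in knockouts 1 and 2 (median -1.34), and none passed in knockouts 3 and 4 (median -0.16, all 7 below 0). Col8a1, a short-chain network-forming collagen, showed the largest difference of the 41 genes. It lay at 9.79, 10.71 and 11.84 in control, at 6.67, 7.53 and 8.74 in knockouts 1 and 2 and at 9.52, 10.73 and 11.39 in knockouts 3 and 4. Knockouts 1 and 2 were thus clear of both other sets (-3.05 ± 0.18, 8.31-fold lower, adjusted p = 0.00155), while knockouts 3 and 4 overlapped control (-0.16 ± 0.18, adjusted p = 0.610). Col14a1 and Col12a1, which bind the surface of type I fibrils, also fell (-2.56 ± 0.23, adjusted p = 0.00204, and -2.13 ± 0.21, adjusted p = 0.00249). Col14a1 lay at 7.49, 9.54 and 10.01 in control and at 6.19, 6.49 and 7.37 in knockouts 1 and 2. Col12a1 lay at 10.44, 11.21 and 11.79 and at 8.18, 8.87 and 9.93. For neither gene did knockouts 1 and 2 overlap control. Of the type VI chains, which form beaded microfilaments, Col6a1 fell by 1.34, Col6a2 by 1.15 and Col6a3 by 1.26 (SE 0.10, adjusted p = 0.00187). Within an array Col6a1 minus Col6a3 shifted by only -0.08 in knockouts 1 and 2 and by -0.01 in knockouts 3 and 4. Col6a3 alone of the 3 chains was clear of control, at 11.60, 12.42 and 12.63 against 10.48, 10.99 and 11.33. Col16a1, another fibril-associated collagen, fell by 0.68 in knockouts 1 and 2.

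The promoter of Col8a1 is shown because that gene moved most. RefSeq start sites (GRCm38.p6) of 28 of the 41 genes were used, as windows of 300 bases from 250 before to 50 after the start. They were searched on both strands for the GC box GGGCGG, the CCAAT box CCAAT, the TATA box TATAAA and the SMAD-binding CAGACA, printed in capitals below; in the 5 windows shown the motifs do not overlap each other except that the windows of Col4a1 and Col4a2 share bases. A GC box was found in 35.7% of all 32851 windows, a CCAAT box in 37.4%, a TATA box in 13.6% and CAGACA in 21.0%. Of the 34 windows of the 28 members, 61.8% held a GC box, 41.2% a CCAAT box, 8.82% a TATA box and 32.4% CAGACA. The other members were not searched, so these shares do not cover all 41 genes. The Col8a1 window on chromosome 16 (chr16:57754688-57754987, minus strand) holds 4 GC boxes and 1 CAGACA.
Col8a1: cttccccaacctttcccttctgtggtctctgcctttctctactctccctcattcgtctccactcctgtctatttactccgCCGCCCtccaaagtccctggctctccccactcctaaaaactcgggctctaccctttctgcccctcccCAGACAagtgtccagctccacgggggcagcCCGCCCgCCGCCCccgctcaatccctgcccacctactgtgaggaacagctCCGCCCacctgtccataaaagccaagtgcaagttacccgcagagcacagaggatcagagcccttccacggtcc

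The 3 transmembrane collagens did not move alike. Col25a1, made by muscle and neurons and needed for motor innervation, lay at 9.86, 10.85 and 11.36 in control and at 8.34, 9.26 and 9.68 in knockouts 1 and 2, with no overlap (-1.51 ± 0.29, adjusted p = 0.0122). It differed by -0.32 ± 0.27 in knockouts 3 and 4. A dimmer Col25a1 probe set (mean 7.36) did not pass in knockouts 1 and 2 (-0.05 ± 0.10, adjusted p = 0.711 over the probe sets). Col13a1, found at cell adhesions and the neuromuscular junction, and Col23a1, an epithelial and neuronal collagen, rose in knockouts 1 and 2 by 0.46 ± 0.11 (adjusted p = 0.0225) and 0.33 ± 0.09 (adjusted p = 0.0375), with overlapping arrays. A second Col23a1 probe set did not pass (0.11 ± 0.08). Skeletal muscle markers spread widely within a set, with the mean of 11 genes between 6.56 and 11.19 in control, 6.70 and 10.13 in knockouts 1 and 2, and 6.07 and 10.93 in knockouts 3 and 4. That mean was 10.18 over the 4 parts of control 1 and 8.27 over those of control 2. The mean of neuron markers was 9.76 in control 1 and 8.11 in control 2. Epithelial markers ran the other way, at 9.50 and 9.98, and endothelial markers lay at 9.29 and 9.28. Control 1 was also higher than control 2 for Lox by 0.79, Col25a1 by 0.79, Col14a1 by 0.66, Col8a1 by 0.50 and Col12a1 by 0.49. Other members ran the other way, led by Col6a1 (-0.46), Col6a2 (-0.37) and Fbln2 (-0.28). The part of muscle, neuron or epithelial content in these members' results was not tested.

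Among elastic fibre and microfibril proteins, 7 of the 9 measured fell in knockouts 1 and 2 (median -0.71) and 1 fell in knockouts 3 and 4 (median -0.40). Eln, the elastin precursor, lay at 9.51, 9.66 and 10.06 in control, at 6.79, 7.18 and 7.44 in knockouts 1 and 2 and at 8.72, 8.87 and 9.60 in knockouts 3 and 4. The first knockout set was clear of control (-2.56 ± 0.11, 5.88-fold, adjusted p = 0.00148), and the second overlapped it by a single array (-0.76 ± 0.11, adjusted p = 0.0616). A second Eln probe set gave -1.29 and, in knockouts 3 and 4, -0.71 ± 0.07 (adjusted p = 0.0464 over the probe sets). Fbln5, which guides elastin onto microfibrils, lay at 10.16, 10.77 and 10.88 in control and at 7.77, 8.50 and 9.41 in knockouts 1 and 2, fell by 2.11 ± 0.10 (adjusted p = 0.00150), and differed by -0.33 in knockouts 3 and 4. Mfap4, a microfibril protein that binds elastin and collagen, differed by a similar amount in both sets. It lay at 11.61, 11.86 and 12.36 in control, at 11.04, 11.29 and 12.03 in knockouts 1 and 2 (-0.55 ± 0.07, adjusted p = 0.00414) and at 10.96, 11.44 and 11.73 in knockouts 3 and 4 (-0.54 ± 0.05, adjusted p = 0.0467). These ranges overlap over all parts, since Mfap4 differs between jaws, but within each of the 4 parts both arrays of knockouts 3 and 4 lay below both controls. Emilin1, a microfibril-associated protein, lay at 11.22, 11.36 and 11.59 in control, and fell in knockouts 1 and 2 (10.45, 10.56 and 10.70, -0.81 ± 0.07, adjusted p = 0.00185). Knockouts 3 and 4 lay at 10.74, 10.93 and 11.23, overlapping control by a narrow margin (-0.43 ± 0.05, adjusted p = 0.0532). Mfap2, a fibrillin-binding protein, fell by 0.85 and Fbln1, a fibulin of microfibrils and basement membranes, by 0.71 in knockouts 1 and 2. They differed by -0.04 and 0.07 in knockouts 3 and 4. Neither fall was seen on every probe set: a second Fbln1 one, also bright (mean 11.30), differed by -0.04 ± 0.09 (adjusted p = 0.740 over the probe sets) and a dimmer Mfap2 one by -0.18 ± 0.08. Fbn2, the embryonic fibrillin, differed by 0.11 in knockouts 1 and 2 (adjusted p = 0.310) and by -0.56 ± 0.10 in knockouts 3 and 4 (adjusted p = 0.0818), and the sets differed from each other by 0.66 ± 0.09 (adjusted p = 0.00157). On its second probe set (mean 11.86) Fbn2 was lower in knockouts 1 and 2 (-0.33 ± 0.08, adjusted p = 0.0192 over the probe sets), and the difference between the sets was -0.07 ± 0.09. Fbln2, a fibulin of embryonic mesenchyme, lay at -0.44 and -0.40 and passed in neither set. Mfap5, also a fibrillin-binding protein, was below the filter level of 6.07 on all arrays of knockouts 1 and 2 and had a median of 5.86 in control. Its fall of 0.69, counted among the 7, is thus between levels near or below the filter, and its second probe set did not pass (-0.09 ± 0.09). It ranged from 5.50 to 8.08 in knockouts 3 and 4.

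Lox, the lysyl oxidase that crosslinks collagen and elastin, fell with them in knockouts 1 and 2, from 10.71, 11.99 and 12.52 in control to 7.28, 9.31 and 9.81 (-2.81 ± 0.28, 7.02-fold, adjusted p = 0.00252). The other set lay at 10.67, 11.12 and 12.31, inside or just below the control range (-0.35 ± 0.29, adjusted p = 0.487). Loxl1, its elastin-directed relative, differed by -0.45 and -0.42 and passed in neither set. Of the matricellular and hyaluronan-binding proteins all 3 fell in knockouts 1 and 2. Postn, periostin of collagen-rich tissues and a TGF-beta target, lay at 12.51, 12.69 and 12.82 in control and at 9.89, 10.74 and 11.55 in knockouts 1 and 2 (-1.86 ± 0.08, adjusted p = 0.00148). Knockouts 3 and 4 spread from 11.88 to 13.11 around a median of 12.25 (-0.31 ± 0.06, adjusted p = 0.0836). It was lower there in 3 parts but higher by 0.27 in the proximal maxilla. Sparc is described above. Vcan, the hyaluronan-binding proteoglycan of early mesenchyme, fell by 0.43 in knockouts 1 and 2 and differed by 0.04 in knockouts 3 and 4. Its 2 other bright probe sets fell by 0.79 and 0.60 in knockouts 1 and 2, while the mean over all its probe sets, dim ones included, differed by 0.12.

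**Figure D3:**
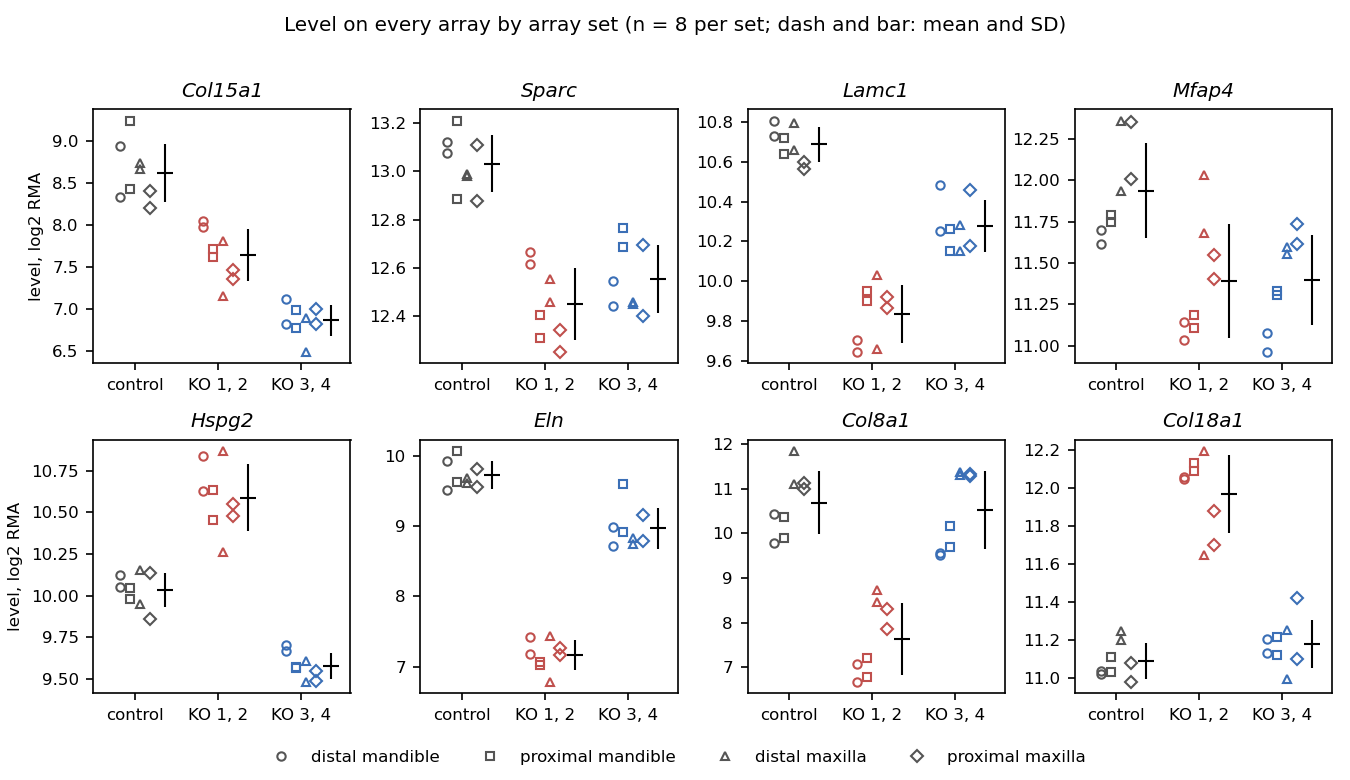
Level (log2) of 8 genes on every array, by array set, with a symbol for each of the 4 parts and the mean and SD of 8 arrays beside them. Col15a1, Sparc and Lamc1 lie below control on all knockout arrays, Hspg2 lies above control in knockouts 1 and 2 (lowest 10.26) and below it in knockouts 3 and 4 (highest 9.70), and Col8a1 and Col18a1 are clear of the control arrays in knockouts 1 and 2 but overlap them in knockouts 3 and 4.

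Of 5 basement membrane collagens, 2 fell and 2 rose in knockouts 1 and 2 and 1 fell in knockouts 3 and 4. Of 6 other basement membrane proteins, 5 fell and 1 rose in knockouts 1 and 2 and 1 fell in knockouts 3 and 4. Of all genes 31.7% were lower and 20.9% higher in knockouts 1 and 2. Col15a1, a multiplexin collagen that links basement membranes to the fibrils beneath them around vessels, nerves and muscle, had the largest difference in knockouts 3 and 4. It lay at 8.20, 8.55 and 9.24 in control, at 7.16, 7.67 and 8.05 in knockouts 1 and 2 and at 6.50, 6.86 and 7.13 in knockouts 3 and 4. No range overlapped another, and the order was control, knockouts 1 and 2, knockouts 3 and 4. The differences were -0.97 ± 0.08 (adjusted p = 0.00185) and -1.75 ± 0.06 (3.36-fold, adjusted p = 0.0250), and between the knockout sets 0.78 ± 0.08 (adjusted p = 0.000712). By part, the difference in knockouts 3 and 4 was -1.66 in the distal mandible, -1.95 in the proximal mandible, -2.01 in the distal maxilla and -1.39 in the proximal maxilla. Col18a1, its closest relative and the source of endostatin, lay at 10.98, 11.06 and 11.25 in control, at 11.65, 12.05 and 12.19 in knockouts 1 and 2 (0.88 ± 0.07, adjusted p = 0.00184) and at 11.00, 11.17 and 11.42 in knockouts 3 and 4 (0.09 ± 0.08, adjusted p = 0.516). Both multiplexins were thus higher in knockouts 1 and 2 than in knockouts 3 and 4, by 0.78 and 0.79. Within an array the difference between Col15a1 and Col18a1 shifted from control by -1.85 in knockouts 1 and 2 and by -1.84 in knockouts 3 and 4, and in neither set did it overlap control. This pair was picked after its values were seen.

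Hspg2, which encodes perlecan, moved in opposite directions in the knockout sets. It lay at 9.86, 10.05 and 10.15 in control, at 10.26, 10.59 and 10.87 in knockouts 1 and 2 (0.55 ± 0.11, adjusted p = 0.0132) and at 9.48, 9.57 and 9.70 in knockouts 3 and 4 (-0.46 ± 0.05, adjusted p = 0.0486). No range overlapped another, and the knockout sets differed by 1.01 ± 0.10 (adjusted p = 0.000573). Its second probe set gave 1.00 and -0.70. In the fit of all probe sets the adjusted p in knockouts 3 and 4 was 0.0526 for the first and 0.0531 for the second. All 3 laminin genes fell in knockouts 1 and 2. Lamc1 fell by 0.85, Lama4, a laminin chain of vessels, by 0.51 and Lamb1, a beta chain of early embryonic laminins, by 0.41. Their differences in knockouts 3 and 4 were -0.41 ± 0.07 (adjusted p = 0.0690), -0.26 and -0.23. Nid1 and Nid2, the nidogens that join laminin to type IV collagen, fell by 0.45 and 1.04 in knockouts 1 and 2 and differed by -0.07 and -0.17 in knockouts 3 and 4. Col4a5, a minor type IV chain, lay at 9.03, 9.34 and 9.70 in control and at 7.73, 8.39 and 8.97 in knockouts 1 and 2 (-1.07 ± 0.12, adjusted p = 0.00305). It differed by 0.07 in knockouts 3 and 4. Endothelial markers, whose cells make vascular basement membrane, had list means of 9.10 to 9.40 in control, 8.43 to 8.98 in knockouts 1 and 2 and 8.90 to 9.43 in knockouts 3 and 4. Of the 15, 8 were lower and 1 higher in knockouts 1 and 2, and 1 (Tie1, -0.51 ± 0.06) was lower in knockouts 3 and 4, where 13 lay below 0. Their part in the basement membrane results was not tested.

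Col4a1 and Col4a2, the common type IV chains, lie on opposite strands of chromosome 8, and the start sites used are 21 bases apart. Each of these starts lies inside the other annotated gene, and the genes overlap there (a gap of -85 bases). Beyond this overlap they run in opposite directions. Their windows share 78 bases, which are the same letters on opposite strands. Col4a1 rose by 0.37 ± 0.07 in knockouts 1 and 2 (adjusted p = 0.00965), at 12.65, 12.85 and 13.15 against 12.46, 12.54 and 12.57 in control, with no overlap. Col4a2 did not pass there (-0.05 ± 0.07, adjusted p = 0.636), and within an array the 2 chains shifted by 0.41. Neither chain passed in knockouts 3 and 4, at -0.22 ± 0.06 and -0.21 ± 0.05 (adjusted p = 0.136 and 0.117), a shift between them of -0.01. A second Col4a1 probe set fell by 0.53 in knockouts 1 and 2, against the direction of the first, so the direction of Col4a1 in that set is not settled. The windows of both type IV chains are shown for their shared stretch, and those of Col15a1 and Hspg2 because these basement membrane genes passed in both sets. Mfap4 also passed in both sets, and its window is not shown. The Col4a1 window (chr8:11312777-11313076, minus strand, GRCm38.p6) holds 1 GC box and 1 CCAAT box, and the Col4a2 window (chr8:11312555-11312854, plus strand) holds 3 GC boxes and 1 CCAAT box. The Col15a1 window (chr4:47207762-47208061, plus strand) holds none of the 4 motifs. The annotated Col15a1 gene begins at position 47207655, so that start lies outside this window. The Hspg2 window (chr4:137468553-137468852, plus strand) holds 5 GC boxes. Their G and C content was 74.0%, 73.7%, 52.3% and 70.3%, against a median of 52.7% over all windows.
Col4a1: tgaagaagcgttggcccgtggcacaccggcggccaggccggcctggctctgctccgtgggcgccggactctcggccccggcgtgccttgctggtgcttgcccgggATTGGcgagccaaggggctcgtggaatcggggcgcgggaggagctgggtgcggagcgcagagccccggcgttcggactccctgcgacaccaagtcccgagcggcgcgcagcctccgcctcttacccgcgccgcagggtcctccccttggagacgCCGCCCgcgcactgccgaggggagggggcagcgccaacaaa
Col4a2: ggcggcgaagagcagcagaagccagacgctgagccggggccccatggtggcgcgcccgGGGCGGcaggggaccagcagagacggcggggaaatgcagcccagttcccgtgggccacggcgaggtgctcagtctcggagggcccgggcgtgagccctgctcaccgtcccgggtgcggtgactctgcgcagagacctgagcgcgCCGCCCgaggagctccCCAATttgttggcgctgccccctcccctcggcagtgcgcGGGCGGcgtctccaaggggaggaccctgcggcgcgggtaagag
Col15a1: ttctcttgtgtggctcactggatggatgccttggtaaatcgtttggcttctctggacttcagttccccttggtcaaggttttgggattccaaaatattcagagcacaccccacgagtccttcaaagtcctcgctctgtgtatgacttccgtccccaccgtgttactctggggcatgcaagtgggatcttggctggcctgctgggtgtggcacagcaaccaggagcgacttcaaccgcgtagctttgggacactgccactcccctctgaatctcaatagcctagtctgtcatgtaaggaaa
Hspg2: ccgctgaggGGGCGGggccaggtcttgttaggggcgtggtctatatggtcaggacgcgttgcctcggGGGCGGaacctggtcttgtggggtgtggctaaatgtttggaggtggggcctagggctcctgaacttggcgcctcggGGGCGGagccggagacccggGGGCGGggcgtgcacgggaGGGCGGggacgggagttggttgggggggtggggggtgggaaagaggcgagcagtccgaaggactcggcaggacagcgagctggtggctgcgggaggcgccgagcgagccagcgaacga

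Of other neighbouring members, Col3a1 and Col5a2 lie 24.6 kb apart on chromosome 1, and Col6a2 and Col6a1 85.2 kb apart on chromosome 10. Each pair fell in knockouts 1 and 2, Col3a1 by 0.71 against 1.17 for Col5a2, and the type VI pair by 1.15 and 1.34. Col18a1, 326 kb from Col6a1 on chromosome 10, rose there.

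The knockout sets were also compared directly, which involves no control array. Of the 41 members, 34 differed between them, against 64.9% of all genes. Knockouts 1 and 2 were lower for 27 (36.2%) and higher for 7 (28.7%). The lower ones were led by Col8a1 (-2.90 ± 0.09, adjusted p = 9.5e-05), Lox (-2.46 ± 0.13, adjusted p = 0.000155), Col14a1 (-2.24 ± 0.10, adjusted p = 0.000134), Col12a1 (-1.99 ± 0.13, adjusted p = 0.000191), Eln (-1.80 ± 0.08, adjusted p = 0.000133) and Fbln5 (-1.78 ± 0.11, adjusted p = 0.000177). The higher ones were Hspg2, Col18a1, Col15a1, Fbn2, Col4a1, Col23a1 and Col27a1. In this comparison 8 of the 30 members with several probe sets had both signs, and second probe sets gave -0.37 for Col27a1, -0.17 for Col4a1 and -0.07 for Fbn2. The 7 members that did not pass were Mfap4 (-0.01 ± 0.07), Loxl1 (-0.03 ± 0.12), Fbln2 (-0.03 ± 0.13), Sparc (-0.11 ± 0.07), Col4a2 (0.16 ± 0.07), Lamb1 (-0.17 ± 0.07) and Col13a1 (0.22 ± 0.11). Other probe sets of Sparc (-1.05) and Lamb1 (-0.50 and -1.73) did pass.

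Genes that act on or beside these members were described as lists, to be read beside the 31.7% of all genes lower and 20.9% higher in knockouts 1 and 2, and the 1.29% lower in knockouts 3 and 4. Of 28 collagen processing genes tested, such as prolyl hydroxylases and chaperones, 18 were lower and 3 higher in knockouts 1 and 2 (median -0.61). Lower in knockouts 3 and 4 were 2 of them: P4ha3, a prolyl 4-hydroxylase (-0.62 ± 0.05, adjusted p = 0.0405), and Creb3l1, a transcription factor of collagen secretion (-0.69 ± 0.08, adjusted p = 0.0486). P3h3 (-0.54, adjusted p = 0.0594) and P4ha2 (-0.31, adjusted p = 0.0794) followed. Of 28 other mesenchymal matrix proteins, 21 were lower and 2 higher in knockouts 1 and 2 (median -1.32). Lower in knockouts 3 and 4 was 1 of them, the collagen-binding Aebp1 (-0.47 ± 0.05, adjusted p = 0.0486), followed by Srpx2 (-0.39), Mgp (-0.94, adjusted p = 0.0841) and the hyaluronan synthase Has2 (-0.30). Of 18 other basement membrane genes, 4 were lower and 3 higher in knockouts 1 and 2, and Lamb2, a laminin beta chain, was lower in knockouts 3 and 4 (-0.49 ± 0.06, adjusted p = 0.0492). Of 11 other collagens outside cartilage, 3 were lower and 1 higher in knockouts 1 and 2, and 0 passed in knockouts 3 and 4, where Col8a2, the partner of Col8a1, had the smallest p (-0.71 ± 0.11, adjusted p = 0.0676). Of 12 other elastic fibre genes, 3 were lower and 2 higher, and 0 passed in knockouts 3 and 4, led by Mfap3l (-0.34, adjusted p = 0.118). The counts for the basement membrane, other collagen and elastic fibre lists in knockouts 1 and 2 were close to or below the shares over all genes. Epithelial markers lay above control for 14 of 16 genes in each knockout set, of which 5 passed in knockouts 1 and 2 and 0 in knockouts 3 and 4. Their list means were 9.11 to 10.50 in control, 9.62 to 10.42 in knockouts 1 and 2 and 9.99 to 10.66 in knockouts 3 and 4. Markers of skeletal tissues were lower with the matrix genes in knockouts 1 and 2: 12 of 13 cartilage genes, 8 of 9 tendon genes and 6 of 6 bone genes, with 5 of 8 pericyte and smooth muscle genes. The cartilage mean lay between 9.05 and 10.75 in control, 7.68 and 8.23 in knockouts 1 and 2, and 8.32 and 9.74 in knockouts 3 and 4, where 2 of 13 passed as lower and all 13 lay below 0. The tendon mean lay between 8.45 and 9.63, 6.95 and 7.59, and 8.53 and 9.22. The bone mean lay between 6.95 and 9.22, 6.49 and 6.92, and 7.26 and 8.79, and the pericyte mean between 8.82 and 10.31, 8.33 and 9.54, and 8.71 and 10.08. Tendon and pericyte genes passed in 0 cases in knockouts 3 and 4, and bone genes in 1. The part of all these cells in the matrix results was not tested.

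Jaws were compared within each genotype. In control, 2 of 41 members differed, against 0.687% of all genes. Col5a1 lay at 11.77, 11.96, 12.02 and 12.09 in the mandible and at 11.24, 11.47, 11.51 and 11.63 in the maxilla (0.50 ± 0.08, adjusted p = 0.0136). Col8a1 lay at 9.79, 9.89, 10.36 and 10.44 in the mandible and at 10.99, 11.10, 11.12 and 11.84 in the maxilla (-1.14 ± 0.19, adjusted p = 0.0137). Neither gene overlapped between jaws. With the knockout sets joined, in a fit of 8 group means, neither passed (0 of 41, against 0.181% of all genes). Every mandibular array was above every maxillary one for 4 members (3.43% of all genes) and below for 3 (4.08%). Mfap4 (-0.45 ± 0.10, adjusted p = 0.0677), Col6a3 (0.65 ± 0.16, adjusted p = 0.0942) and Lamb1 (0.36 ± 0.10, adjusted p = 0.130) had the next smallest p-values. In the knockouts 5 of 41 differed, against 7.71% of all genes, 1 higher in the mandible (3.34%) and 4 lower (4.37%). With 8 group means 1 passed (2.36% of all genes). Col5a1 was again higher in the mandible (0.39 ± 0.06, adjusted p = 0.00116), and Col8a1 (-1.50 ± 0.14, adjusted p = 2.33e-05), Mfap4 (-0.50 ± 0.07, adjusted p = 0.000790), Col16a1 (-0.40 ± 0.07, adjusted p = 0.00438) and Col1a2 (-0.23 ± 0.05, adjusted p = 0.0188) were higher in the maxilla.

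Within knockouts 1 and 2, Col8a1 lay between 6.67 and 7.21 in the mandible and between 7.85 and 8.74 in the maxilla. Within knockouts 3 and 4 it lay between 9.52 and 10.17 and between 11.29 and 11.39. The maxilla was thus higher on every array of each set, though the sets stood far apart. Mfap4 ranged from 10.96 to 11.33 over the 8 mandibular knockout arrays and from 11.40 to 12.03 over the 8 maxillary ones, the only member with no overlap (0.441% of all genes). The knockout effect itself differed between jaws for 0 of 41 members (limma, 0% of all genes, 5 members and 4.12% of genes at an unadjusted p under 0.05). The smallest p was that of Col1a1, whose knockout difference was lower in the mandible than in the maxilla (-0.70 ± 0.20, adjusted p = 0.867). It was followed by Col16a1 (-0.40 ± 0.13), Col1a2 (-0.27 ± 0.09), Col6a3 (-0.52 ± 0.20) and Col5a2 (-0.46 ± 0.19), each with an adjusted p of 0.995. Muscle markers passed as higher in the mandible for 6 of 11 genes in the knockouts and 0 of 11 in control, where the list means of 10.23 and 8.22 came from overlapping arrays. Neuron markers passed as lower in the mandible for 5 of 10 genes in the knockouts (median -2.01) and 0 of 10 in control. In control 8 of the 10 also lay below 0 (median -1.21), on fewer arrays than in the knockouts.

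**Figure D4:**
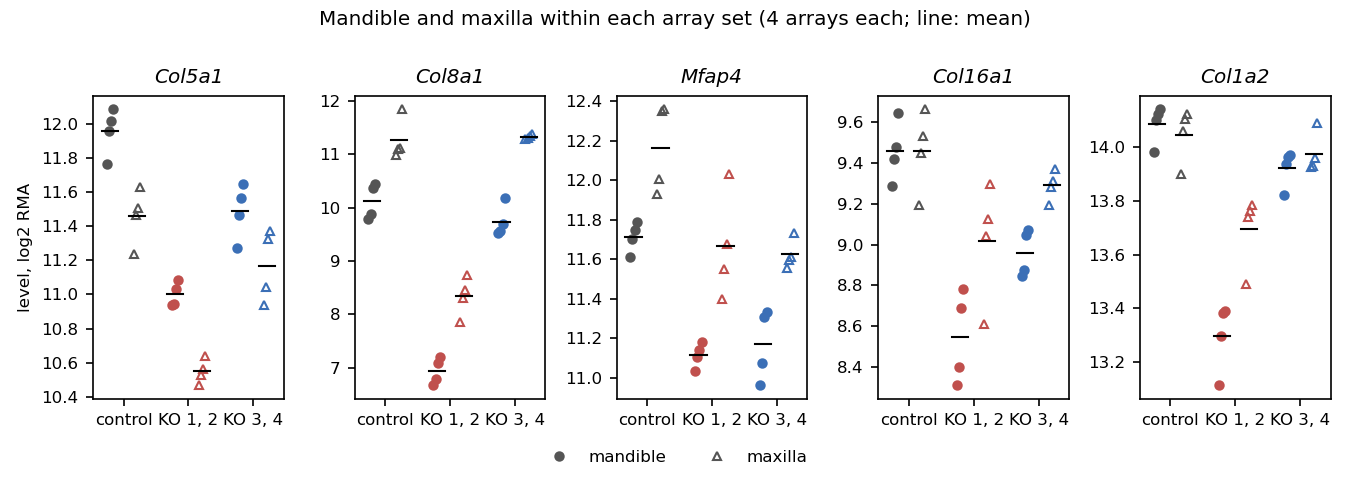
Level (log2) of the 5 genes that differed between jaws, by array set, with filled circles for the mandible, open triangles for the maxilla and a line at the mean of 4 arrays. The mean of Col5a1 is higher in the mandible and those of Col8a1 and Mfap4 in the maxilla in all 3 sets, while Col1a2 in control shows overlapping jaws around 14.07.

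Between distal and proximal ends of control jaws 0 of 41 members passed (limma, 0% of all genes, with 0 members and 1.08% of genes at an unadjusted p under 0.05). Col12a1 (0.38 ± 0.21), Col6a3 (0.25 ± 0.16), Lama4 (0.13 ± 0.09), Col5a1 (0.12 ± 0.08) and Lamc1 (0.12 ± 0.09) had the smallest p-values, each with an adjusted p of 1.00. In the knockouts Col23a1 alone passed, 1 of 41 against 0.463% of all genes, and was lower distally (-0.77 ± 0.11, adjusted p = 0.00744). Its distal and proximal arrays lay at 9.24 to 9.64 and 10.33 to 10.72 in knockouts 3 and 4, and at 9.85 to 10.67 and 10.33 to 11.07 in knockouts 1 and 2. They overlapped in control, at 9.82 to 10.49 and 9.77 to 10.53. Only knockouts 3 and 4 showed a gap between ends. Col13a1 lay higher distally (0.57 ± 0.15, adjusted p = 0.142) and Lox (-1.11 ± 0.31, adjusted p = 0.163), Col4a5 (-0.49 ± 0.15, adjusted p = 0.210) and Col12a1 (-0.50 ± 0.15, adjusted p = 0.211) lower. The Col23a1 call was lost without knockout 1, 3 or 4 and within either knockout set alone.

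The knockout effect differed between ends for 0 of 41 members, against 0.00723% of all genes (limma, 7 members and 3.69% of genes at an unadjusted p under 0.05). Col23a1 (-0.87 ± 0.19, adjusted p = 0.466), Col12a1 (-0.88 ± 0.26), Col14a1 (-1.28 ± 0.46), Lox (-1.32 ± 0.53) and Col5a1 (-0.24 ± 0.10) had the smallest p-values, with an adjusted p of 0.971 for the last 4. Col14a1 in knockouts 3 and 4 lay between 7.59 and 9.03 distally and between 9.34 and 9.53 proximally, without overlap, while control arrays ran from 8.49 to 10.01 and from 7.49 to 9.81. Lox in the same set lay between 10.67 and 11.12 distally and between 11.12 and 12.31 proximally. Muscle markers in knockouts 3 and 4 averaged 8.56 distally and 9.48 proximally. Without control 1, 2 members passed in this comparison, Col14a1 and Col23a1.

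**Figure D5:**
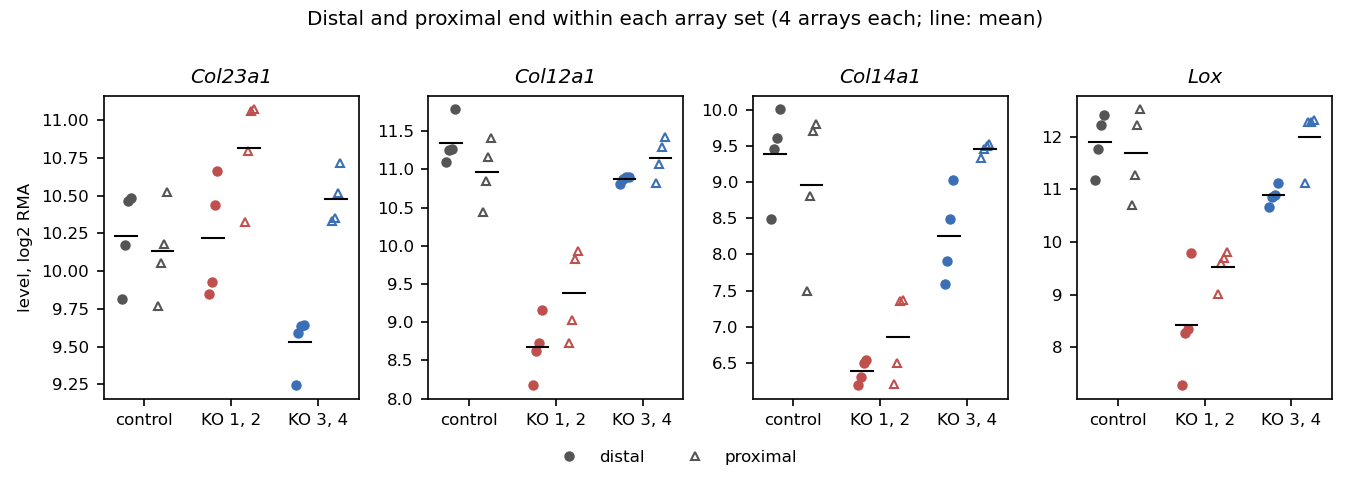
Level (log2) of 4 genes by array set, with filled circles for distal and open triangles for proximal ends and a line at the mean of 4 arrays. In knockouts 3 and 4 the ends are apart for Col23a1 and Col14a1, with distal means of 9.53 and 8.26, while in control the ends overlap for all 4 genes.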

How the data were processed

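Total RNA was hybridised to Affymetrix Mouse430_2 arrays. The authors deposited log2 values per probe set, made with RMA per the submitters' processing notes; the version, and whether all arrays shared 1 run, are not given in the sources used here. Of 45101 probe sets, 64 are controls, 34945 carry 1 symbol, 932 several and 9160 none. Genes above 6.07 (the 40th percentile) on at least 2 arrays were tested with limma 3.58.1 (R 4.3.3, lmFit and eBayes), 2-sided, with Benjamini-Hochberg adjustment over all genes tested. For knockout against control, each replicate number was the mean of its 4 parts. Jaws and ends were tested on single arrays, with a mean for each array set and part. The procedure was tested on simulated data. Members and lists were chosen with earlier results of these data known. Named with statistics were up to 12 members past the threshold, by size, without overlap of groups; where fewer than 5 passed, the 5 smallest p-values; and up to 4 genes of a list. Alternatives covered the filter, centring, probe sets, moderation, left-out numbers, RNA quality, sex, array set and a replicate block; fits of all 24 arrays at once, and with control numbers crossed, were added after seeing the data. The number of arrays limits the precision.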

Additional observations from a re-analysis of the deposited data

Results flagged for a closer look

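Among 205 groups of 4 knockout values (164 of arrays and 41 of number means), 8 held 1 array far from the other 3. Chance gives about 5% for 4 values of a single spread. These groups join the 2 array sets, so that share is no yardstick here. Mfap5 of knockout 4 lay at 7.67 in the distal mandible and at 7.44 in the distal maxilla, where the other 3 arrays were below the filter level of 6.07. In the proximal maxilla, Col13a1 of knockout 3 lay low at 8.05, Vcan of knockout 3 high at 13.17 and Fbn2 of knockout 4 low at 11.83. In the distal maxilla, Sparc of knockout 2 lay high at 12.55 and Nid2 of knockout 1 low at 8.64. In the distal mandible, Loxl1 of knockout 1 lay high at 9.24.

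Probe sets that the gene comparisons did not use held 3 further differences in knockouts 3 and 4 against control, by limma over all probe sets tested. They were the second probe set of Col1a1 (-1.45 ± 0.08, adjusted p = 0.0241), of Eln (-0.71 ± 0.07, adjusted p = 0.0464) and of Lamb1 (-0.53 ± 0.06, adjusted p = 0.0496). The probe sets used for these genes gave 0.01, -0.76 and -0.23.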

How the results depend on the processing

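Values are members called of 41. Of the all-parts comparison, with 0 called, 11 were called with the RNA quality covariate (4.91% of all genes) and 35 with 24 arrays in 1 fit (46.8%). The covariate largely stands for the array set, and the fit of 24 arrays gives each array set its own mean. Whether replicate numbers pair the samples is not settled. Correlations of deviations between parts ran from -0.68 to 0.58 in control and from -0.31 to 0.22 in knockouts 1 and 2. In knockouts 3 and 4 all were above 0 (0.07 to 0.35). With a replicate block, which can use only the shared numbers 1 and 2, 36 were called in the all-parts comparison (46.2% of all genes). The block left the member counts of the other comparisons it could be fitted to as reported. In knockouts 3 and 4 against control, 3 became 6 with the mean over all probe sets of a gene (1.49% of all genes) and 11 with a trended prior (5.39%). The count was 8 with 1 fit of all 6 means (4.64%) and 16 with 24 arrays in 1 fit (17.9%). It was 0 with the control distal mandible numbers crossed (0%). Leaving out 1 number gave 0 to 14. A sex covariate also gave 0, with the same values as leaving out knockout 4, so it is no separate test of sex. The crossing was tried because those numbers deviated oppositely to the other control parts. Knockouts 1 and 2 against control gave 28 to 37 over the alternatives. Between jaws in control, 2 became 1 with the mean of probe sets and 0 with 8 group means. Between jaws in the knockouts, 5 became 1 with 8 group means, 1 within knockouts 3 and 4 alone, and 2 to 5 with 1 number left out. Between ends, control gave 0 to 1 and the knockouts 0 to 3 with 1 number left out; the knockouts gave 0 with 8 group means or within either set. The knockout effect between ends gave 0 to 2. Among members called as reported, directions reversed with the mean over all probe sets for Col1a2 (0.0072), Col4a1 (-0.081) and Vcan (0.12) in knockouts 1 and 2 against control, and for Col1a2 (0.10) and Vcan (0.047) between the knockout sets. The Col5a1 difference between control ends ran from -0.032 to 0.27 with 1 number left out. The cause was not tested.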
